A study of Mus musculus with 7 samples.

Results

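The 9 genes described here carry, convert and read vitamin A in mouse pancreatic islets. They are the retinaldehyde dehydrogenase genes Aldh1a1, Aldh1a2 and Aldh1a3, the retinol carrier gene Rbp4, the retinol importer gene Stra6, the retinol dehydrogenase gene Rdh10 and the retinoic acid receptor genes Rara, Rarb and Rarg. They were taken by symbol from the 34245 genes that the table lists, and all 9 were found. Aldh1a3 and Rbp4 led the choice because their levels were already known to differ between the groups. Differences between KO and control islets are therefore given for the members as descriptions without a test.

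Islets are the hormone-secreting cell clusters of the pancreas. RNA of whole islets from C57BL/6J mice 8 weeks old was sequenced in 5 KO and 2 control libraries. In the KO mice a conditional Abca12 allele was deleted by Rip1-Cre (the allele is named tm1d), and Cre under this insulin promoter acts in beta cells, so other islet cells keep the gene. Control 1 carried Rip1-Cre with wild type Abca12, and Control 2 carried Rip1-Cre with a heterozygous floxed allele, so every library of both groups comes from a Cre carrier. The controls are thus 1 library of each genotype. The labels do not say whether a library is a single mouse.

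Retinol, the circulating form of vitamin A, travels in blood bound to the protein made by Rbp4 and enters cells through the receptor made by Stra6. Inside cells, retinol dehydrogenases such as the Rdh10 product oxidise it to retinaldehyde, and the Aldh1a enzymes make retinoic acid from that. Retinoic acid binds the receptors RARα, RARβ and RARγ on DNA and is cleared by the Cyp26 enzymes. In the developing pancreas retinoic acid helps to pattern the organ, and in adult mouse islets ALDH1A3 is widely used as a marker of failing, dedifferentiated beta cells.

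Libraries held 13335960 to 24590888 reads in listed genes. Values are RPM, reads scaled to one common library total, and 3 reads, taken as the limit that a count of 0 allows, corresponded to 0.0696 to 0.125 RPM by library. Abca12 had no read in any library of either group, so it cannot check the labels. The header suffix is f for KO 1 and KO 2 and m for the other 5 libraries. The beta cell markers Ins1 and Ins2 were abundant in every library, with 10 of 10 beta cell markers and 13 of 13 acinar markers detected throughout. Summed acinar markers, the digestive enzymes of the exocrine pancreas, ran from 1652 to 10165 RPM in KO and from 393 to 805 RPM in control libraries. Summed stellate and fibroblast markers ran from 48.9 to 69.8 RPM in KO libraries, and stood at 64.1 RPM in Control 1 and 179 RPM in Control 2.

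A pair of promoter sequences is shown because it belongs to genes most often read as a gauge of retinoic acid. Rarb encodes RARβ, whose gene is itself switched on by retinoic acid, and Cyp26a1 encodes a retinoic acid hydroxylase with the same property. Each line gives the 250 bases before the start of transcription in RefSeq (build GRCm38.p6), 5′ to 3′ on the gene's own strand, for Rarb at chr14:16575477-16575726 on the minus strand and for Cyp26a1 at chr19:37697558-37697807 on the plus strand. Capitals mark a match to the DR5 retinoic acid response element, a direct repeat of a receptor half-site.
Rarb: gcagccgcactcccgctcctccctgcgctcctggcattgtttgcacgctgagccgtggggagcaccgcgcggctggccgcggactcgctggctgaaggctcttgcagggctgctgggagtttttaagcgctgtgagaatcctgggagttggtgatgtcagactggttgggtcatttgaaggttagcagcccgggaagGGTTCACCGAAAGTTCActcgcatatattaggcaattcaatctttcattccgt
Cyp26a1: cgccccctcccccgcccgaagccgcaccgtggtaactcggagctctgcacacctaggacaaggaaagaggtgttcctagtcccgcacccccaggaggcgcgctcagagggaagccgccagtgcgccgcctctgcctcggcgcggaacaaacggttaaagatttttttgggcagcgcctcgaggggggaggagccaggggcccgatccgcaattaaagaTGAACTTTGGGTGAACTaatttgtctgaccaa

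The Rarb match began at position -53 and the Cyp26a1 match, on the opposite strand, at position -32, counted from the start of transcription. Both strands were searched. A DR5 match was present in 29 of 32851 promoter windows of this length, or 0.0883%. The windows cover 7 of the 9 members, without Aldh1a3 and Rdh10, and 1 of those 7 held a DR5 match. Of 19 genes that bind, break down or respond to retinoic acid, 12 had a window. Of those 12, 1 held a DR5 match, namely Cyp26a1. The pair shown thus holds the only DR5 matches among these genes. The DR5 search allowed A or G as the first base and G or T as the third base of each half-site. The single half-site was searched more strictly, as AGGTCA alone, which neither of the pair shown contains. It was present in 14.0% of all windows and in 1 of the 7 members, Rarg. A match describes letters and is not a measured binding site.

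Both of these response genes were low, Cyp26a1 near the limit of detection and Rarb near it only in KO 2 and Control 1. Rarb (chromosome 14, 16430839 to 16819156, GRCm38) stood at 0.460, 0.0751, 0.605, 0.330 and 0.742 RPM in KO 1 to KO 5, against 0 RPM in Control 1 and 0.693 RPM in Control 2. The value of 0 in Control 1 allows a level of up to 0.125 RPM at that depth. The groups overlapped, with KO 2 near the level of Control 1 and KO 5 near that of Control 2. All 7 libraries together held 101 Rarb reads. Cyp26a1 had 5 reads in all, every one of them in KO 5.

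Cyp26b1, a second retinoic acid hydroxylase, was also low but uneven. It stood at 0.230, 0.113, 0.263, 0.110 and 0.209 RPM in KO 1 to KO 5, against 0.0418 RPM in Control 1 and 1.21 RPM in Control 2. Control 2 held 40 of its 72 reads. The KO libraries lay between the 2 controls, which differed more from each other than either did from the KO libraries.

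Among the retinaldehyde dehydrogenases, which make retinoic acid, Aldh1a3 was lower in KO islets (chromosome 7, 66390890 to 66427517, minus strand). It stood at 0.996, 0.751, 1.26, 0.586 and 1.39 RPM in KO 1 to KO 5, against 1.67 RPM in Control 1 and 4.13 RPM in Control 2. All 5 KO libraries lay below both controls, so the groups did not overlap. That was also true of 15.2% of the 16212 genes tested, 8.41% with KO lower. The difference of means, KO minus control, was -0.91 (SE 0.24) on the log2(RPM + 1) scale, with the SE from the limma fit across all genes. For genes at such low RPM this scale gives a smaller difference than the ratio of RPM would.

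The gap between the groups was narrow on the side of Control 1. KO 5, the highest KO library, rested on 60 Aldh1a3 reads and Control 1 on 40, and their exact 95% Poisson intervals were 1.06 to 1.79 RPM in KO 5 and 1.19 to 2.28 RPM in Control 1. These intervals cover counting error only, and they overlap. Control 2 lay well above every other library, with an interval of 3.47 to 4.88 RPM. Without Control 2 the difference was -0.44 (SE 0.24), and without Control 1 it was -1.38 (SE 0.24). In the m libraries alone, 3 KO against 2 control, it was -0.85 (SE 0.27). The authors' deposited table of 136 selected genes lists Aldh1a3, the only member in it, with a log2 difference of -1.47 after the sign is turned to KO minus control. That table was chosen on these samples.

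**Figure D1:**
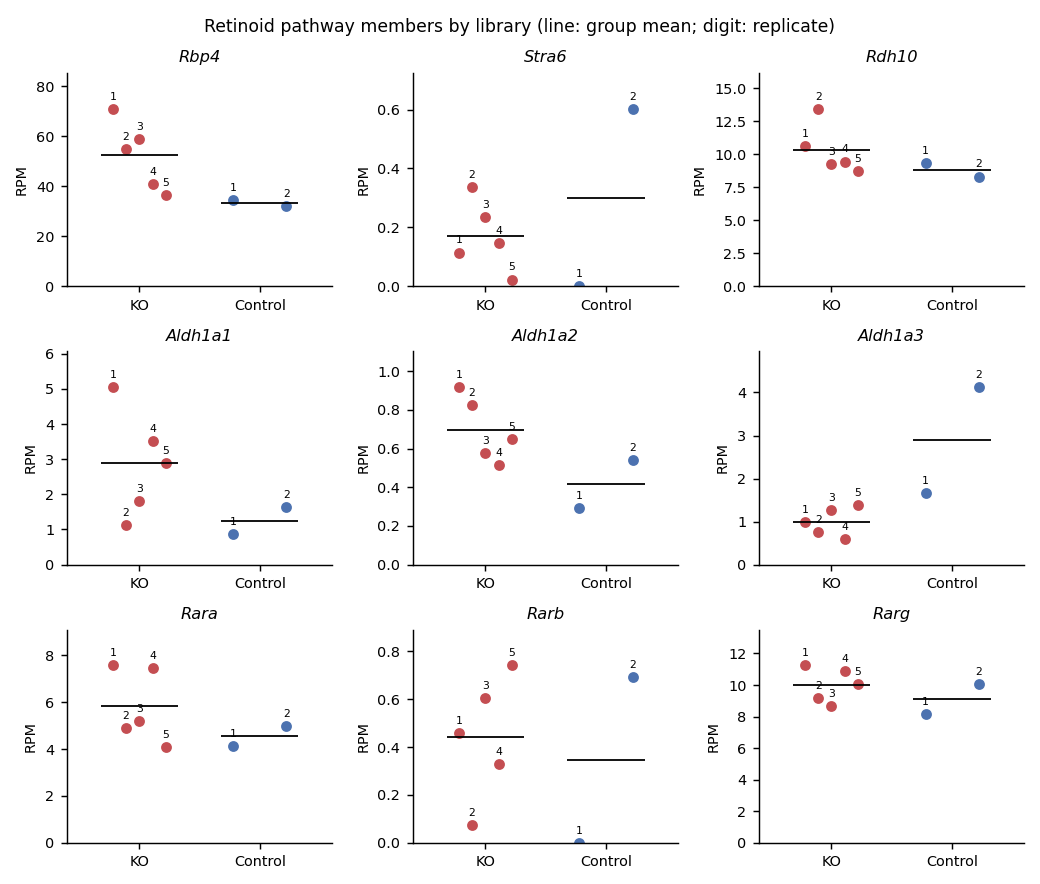
Level in RPM (vertical axes from 0) of each of the 9 members in the 5 KO and 2 control libraries, where each point is a library with its replicate number and the line is the group mean. Points of the groups do not overlap for Rbp4, higher in KO, and Aldh1a3, lower in KO, and overlap for the other 7.

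Aldh1a1 (chromosome 19, 20492715 to 20643462), which encodes the related cytosolic dehydrogenase, was on average higher in KO islets but with overlap. It stood at 5.06, 1.13, 1.81, 3.52 and 2.90 RPM in KO 1 to KO 5, against 0.878 RPM in Control 1 and 1.63 RPM in Control 2. KO 2 lay between the controls and the other 4 KO libraries above both. The difference of means was 0.71 (SE 0.32) on the log2(RPM + 1) scale. It was 0.47 (SE 0.42) without Control 1 and 1.09 (SE 0.22) without KO 2 and KO 3. Aldh1a7, a neighbour whose coding sequence is 91.6% identical to that of Aldh1a1 with an unbroken run of 100 shared bases, had 31 reads in all, and how reads were divided between these copies is not given in the sources used here.

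Aldh1a2 (chromosome 9, 71215789 to 71296243), the main retinoic acid synthase of the embryo, was on average the lowest of the 3 in RPM. It stood at 0.919, 0.826, 0.578, 0.513 and 0.649 RPM in KO 1 to KO 5, against 0.293 RPM in Control 1 and 0.542 RPM in Control 2. KO 4 fell below Control 2, and the libraries rested on 14 to 28 reads in KO and 7 and 18 reads in control islets. The coding sequences of the 3 genes share only 69.3% to 69.9% of aligned bases, with no identical run above 26 bases.

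The groups also did not overlap in the makeup of the family. Expressed per kilobase of exon, Aldh1a3 was 13.1%, 21.5%, 30.5%, 11.9% and 25.6% of the summed dehydrogenase level in KO 1 to KO 5, against 54.1% in Control 1 and 61.1% in Control 2. It was the largest of the 3 in both controls and in none of the KO libraries. Aldh1a1 was the largest in 4 KO libraries, at 41.0% to 66.8%, and Aldh1a2 in KO 2, at 48.3%. The shares depend on the length used. Exon lengths were 4937 bases for Aldh1a1 and 2264 for Aldh1a2, and the longest coding transcripts 2358 and 2264 bases. In RPM, without division by length, Aldh1a1 stood above Aldh1a2 in KO 2 as well, at 1.13 against 0.826 RPM. The summed level was 0.756 to 1.65 RPM per kb in KO libraries, against 0.669 RPM per kb in Control 1 and 1.46 RPM per kb in Control 2, so the groups overlapped. These shares follow from the levels above and are no separate evidence.

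**Figure D2:**
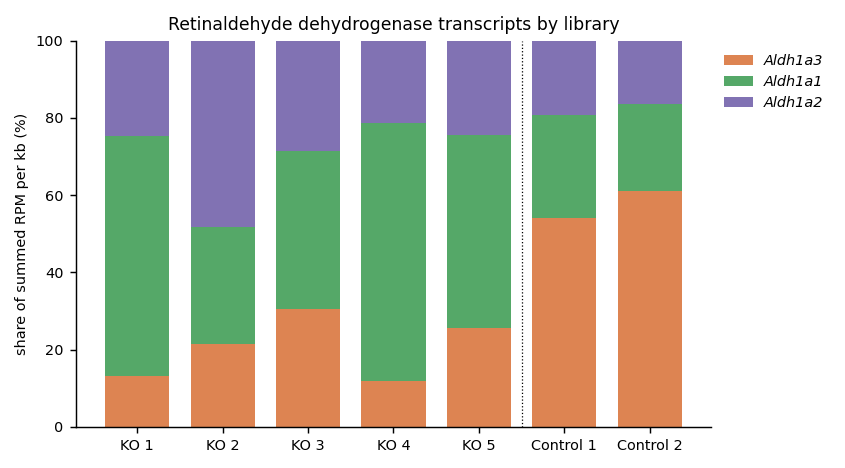
Share of each retinaldehyde dehydrogenase gene (stacked bars, % of the summed RPM per kb of exon) in each library, KO left of the dotted line and control right of it. Aldh1a3 takes 54.1% and 61.1% in the control libraries and 11.9% to 30.5% in the KO libraries.

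Rbp4 (chromosome 19, 38116620 to 38125321, minus strand), the gene of the retinol carrier, was the member with the highest level and was higher in KO islets. It stood at 71.0, 55.1, 59.0, 41.0 and 36.4 RPM in KO 1 to KO 5, against 34.5 RPM in Control 1 and 32.2 RPM in Control 2. Each KO library lay above both controls, as for 6.75% of all genes tested. KO 1 to KO 3 were well above the controls, while KO 4 and KO 5 were close to them. KO 5 (1570 reads, exact 95% Poisson interval 34.6 to 38.3 RPM) and Control 1 (826 reads, 32.2 to 37.0 RPM) overlap within counting error. The difference of means was 0.60 (SE 0.20) on the log2(RPM + 1) scale and 0.40 (SE 0.16) in the m libraries alone.

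Rbp4 moved together with somatostatin (Sst), the hormone of delta cells, which express Rbp4 in mouse islets. Sst stood at 1255, 1042, 1013, 659 and 639 RPM in KO 1 to KO 5, against 581 RPM in Control 1 and 635 RPM in Control 2. For every 100 RPM of Sst there were 5.66, 5.29, 5.82, 6.21 and 5.70 RPM of Rbp4 in KO 1 to KO 5, against 5.95 RPM in Control 1 and 5.08 RPM in Control 2. This ratio overlapped between the groups, with 4 KO values between the 2 controls. Whole islets were sequenced, so more delta cells, more RNA per delta cell and less RNA of other cells cannot be told apart. Rbp4 ran against beta cell genes, at -0.895 with Ucn3, -0.860 with Ins1 and -0.777 with the beta cell sum (n = 7). That sum overlapped, at 59671 to 88163 RPM in KO libraries against 70004 and 77096 RPM in control libraries. Of its 10 markers 8 had lower means in KO, 2 with no overlap beside 8.41% of all genes. Their part was not tested.

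The other markers of delta, PP and alpha cells moved the same way as Rbp4 in part. Leaving Rbp4 out, 6 of 6 delta and PP cell markers were detected in every library, and their sum ran from 1683 to 2609 RPM in KO libraries against 1270 and 1559 RPM in control libraries. The alpha cell sum, led by glucagon (Gcg), ran from 2599 to 7300 RPM in KO libraries against 3220 and 3334 RPM in control libraries, and 8 of 8 markers were detected throughout. Gcg per library kept the order KO 1, KO 3, KO 2 at the top, at 6666, 5749 and 3893 RPM, while KO 5 was lowest of all at 2213 RPM. Rbp4 correlated with the alpha cell sum at 0.922 and with the delta and PP cell sum at 0.921 over 7 libraries, and with Gcg at 0.918 and the alpha cell gene Ttr at 0.926. Per 100 RPM of Gcg there were 1.03 to 1.65 RPM of Rbp4 in KO libraries, against 1.22 RPM in Control 1 and 1.10 RPM in Control 2. Per 100 RPM of Ttr there were 15.6 to 19.4 RPM in KO libraries, against 17.1 RPM in Control 1 and 13.2 RPM in Control 2. These ratios overlapped between the groups as that to Sst did. With 2 controls such overlap cannot show that genes follow each other. The ratios to Pyy and Ppy, of the delta and PP cell list, overlapped too. Per 100 RPM of Ppy there were 5.21 to 10.3 RPM of Rbp4 in KO libraries, against 6.55 and 11.7 RPM in control libraries. Yet Rbp4 correlated with Pyy at only 0.78 and with Ppy at 0.58. Not all markers of these lists were higher in KO. Of the 6 delta and PP cell markers, 5 had higher means in KO, 2 with no overlap beside 6.75% of all genes. Over all 16212 genes tested, 7831 were higher and 8381 lower in KO on the log2(RPM + 1) scale. Ghsr was lower, at 1.77 RPM in KO and 2.16 RPM in control libraries. Of the 8 alpha cell markers, 6 had higher means in KO and 2 lower. Gc and Slc7a2 differed by -0.13 and -0.04 on the log2(RPM + 1) scale, KO minus control. The part of these cell types in the Rbp4 difference was not tested.

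By the likeness of their profiles, the genes closest to Rbp4 included Sst itself. Over the 7 libraries, on log2(RPM + 1) and among 14541 other genes with at least 20 reads on average, the highest Pearson correlations with Rbp4 were 0.989 for Gm26751, 0.988 for Stag1, 0.983 for Zbtb38, 0.976 for Tubb4a and 0.975 for Sst. Stag1 encodes a cohesin subunit, Zbtb38 a zinc finger protein and Tubb4a a tubulin. All of these points share libraries and depth, and with 7 points many genes reach high values. Without Control 2 the correlation of Rbp4 with Sst was 0.989 (n = 6).

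For Aldh1a3 the closest profiles were those of Zfp366 (0.982), Atg4c (0.980), Fam171b (0.973), Syk (0.972) and Phkb (0.972), over the same 7 libraries. Syk, a tyrosine kinase of blood cells, stood at 2.11, 1.35, 2.21, 1.502 and 1.90 RPM in KO 1 to KO 5, against 2.76 RPM in Control 1 and 5.61 RPM in Control 2. Control 2 was the highest library for each of these 5 genes, as for Aldh1a3.

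Control 2 was also high in transcripts of supporting cells. The collagen gene Col6a3, chosen after its values were seen, stood at 6.97, 6.65, 7.07, 6.26 and 6.91 RPM in KO 1 to KO 5, against 9.95 RPM in Control 1 and 23.8 RPM in Control 2. All 12 stellate and fibroblast markers had lower means in KO, 3 of them with no overlap beside 8.41% of all genes, and the defining marker Pdgfra ran from 0.0366 to 0.289 RPM in KO libraries against 0.502 RPM in Control 1 and 2.11 RPM in Control 2. Summed lymphocyte markers ran from 1.603 to 4.24 RPM in KO libraries against 2.13 RPM in Control 1 and 26.9 RPM in Control 2, and among others Cd3e, Cd3g, Cd79a, Ms4a1, Trbc1 and Trbc2 were at 0 in at least 1 library. Aldh1a3 correlated with Col6a3 at 0.954 over 7 libraries and at 0.784 without Control 2 (n = 6). The correlation of Aldh1a3 with the summed stellate and fibroblast markers was 0.923 over 7 libraries and 0.568 without Control 2. With the summed lymphocyte markers it was 0.899 over 7 libraries and 0.374 without Control 2. All 10 endothelial markers also had lower means in KO, 4 with no overlap beside 8.41% of all genes. Of all 16212 genes tested, 8381 were lower in KO on the log2(RPM + 1) scale. The endothelial sum ran from 108 to 155 RPM in KO libraries, against 170 RPM in Control 1 and 202 RPM in Control 2. Aldh1a3 correlated with that sum at 0.749 over 7 libraries and at 0.482 without Control 2 (n = 6). The part of these cells in the Aldh1a3 difference was not tested.

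The other genes used as marks of beta cell dedifferentiation differed in direction. Of the 8 listed besides Aldh1a3, 3 had higher and 4 lower means in KO, and Pou5f1 was at 0 in every library. Neurog3, the endocrine progenitor factor, stood at 2.39 to 3.57 RPM in KO libraries and at 1.88 and 2.38 RPM in control libraries, with no overlap, although KO 5 and Control 2 differed by less RPM than 1 read is worth. Serpina7, which encodes a thyroxine-binding protein, stood at 26.9 to 42.4 RPM in KO libraries and at 48.6 and 55.3 RPM in control libraries. Its difference was -0.68 (SE 0.14, adjusted p = 0.0895 by limma).

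**Figure D3:**
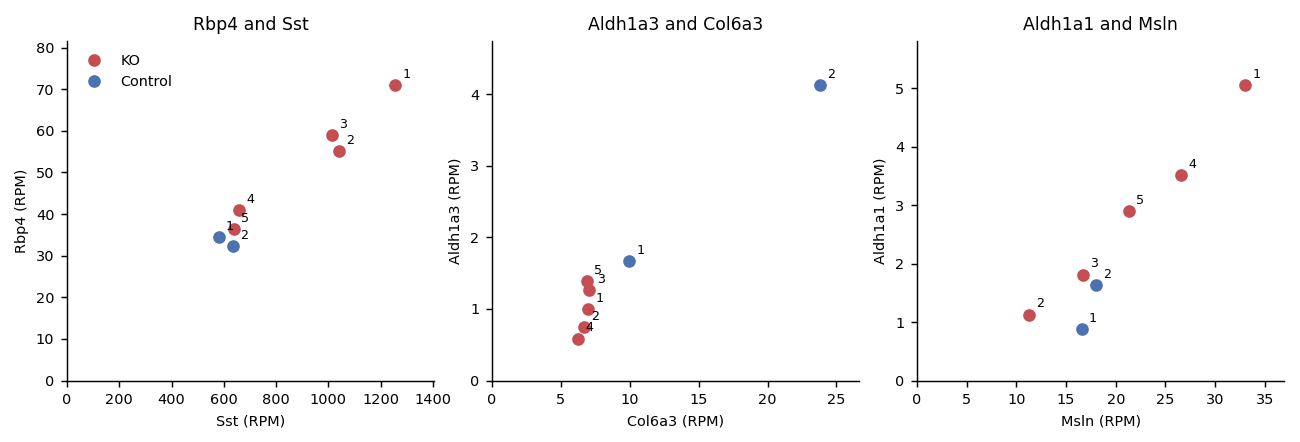
RPM of 3 members (vertical axes) against RPM of a cell type marker gene (horizontal axes), 1 point per library with its replicate number, KO in red and control in blue. Rbp4 follows Sst across both groups, Aldh1a3 and Col6a3 are both highest in Control 2, and Aldh1a1 and Msln are both highest in KO 1.

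Aldh1a1 varied widely among the KO libraries, and its order there matched that of mesothelin (Msln), a surface protein of the mesothelial lining. Msln stood at 33.0, 11.3, 16.7, 26.6 and 21.3 RPM in KO 1 to KO 5, against 16.6 RPM in Control 1 and 17.99 RPM in Control 2. KO 1 was highest and KO 2 lowest for both genes within the KO group. The correlation was 0.910 over 7 libraries and 0.834 without KO 1 (n = 6). Msln made up most of the mesothelial sum, which ran from 16.6 to 37.6 RPM in KO and from 20.7 to 21.8 RPM in control libraries. Wt1, a transcription factor gene of the mesothelium detected in every library, went the other way, at 0.105 to 0.345 RPM in KO libraries against 0.418 RPM in Control 1 and 0.331 RPM in Control 2. Of 8 markers 3 were detected in every library, and the defining markers Upk3b, Upk1b, Lrrn4, Krt5 and Nkain4 were at 0 in at least 1 library, with Upk3b at 0 to 0.268 RPM in KO libraries and 0.125 and 0.211 RPM in control libraries. Some of the 11 duct cell markers shared the order of Msln in part, but their sum did not. The duct sum stood at 2639, 2583, 2008, 1978 and 2736 RPM in KO 1 to KO 5. It was 2326 RPM in Control 1 and 2361 RPM in Control 2. Aldh1a1 correlated with the duct sum at 0.096 over 7 libraries. Spp1 weighed most in this sum, with a mean of 1319 RPM, against 47.3 RPM for Krt19 and 11.6 RPM for Muc1. Krt19, a duct keratin gene, stood at 79.2 RPM in KO 1 and 31.7 RPM in KO 2, and Muc1, a mucin gene, at 20.5 RPM in KO 1 and 7.47 RPM in KO 2, in each case the highest and the lowest of all libraries. These genes were chosen after the values were seen, and the part of such cells was not tested.

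Of the 2 members that act at the entry of retinol into the pathway, Rdh10 was well measured and Stra6 barely detected. Rdh10 (chromosome 1, 16105774 to 16133734) stood at 10.6, 13.4, 9.25, 9.45 and 8.77 RPM in KO 1 to KO 5, against 9.32 RPM in Control 1 and 8.32 RPM in Control 2. KO 2 was the highest library, and KO 3 and KO 5 fell between the controls. Stra6 (chromosome 9, 58063788 to 58153996) stood at 0.115, 0.338, 0.237, 0.147 and 0.0232 RPM in KO 1 to KO 5, against 0 RPM in Control 1 and 0.603 RPM in Control 2. It had 46 reads in all, 20 of them in Control 2, and did not reach the level needed for testing. Its annotated span overlaps Ccdc33 on the opposite strand. Whether reads were counted by strand is not given in the sources used here, so even these reads are uncertain.

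The retinoic acid receptors were expressed mainly as Rarg and Rara. Rarg (chromosome 15, 102234938 to 102257517) stood at 11.3, 9.20, 8.67, 10.9 and 10.04 RPM in KO 1 to KO 5, against 8.19 RPM in Control 1 and 10.1 RPM in Control 2. Rara (chromosome 11, 98927818 to 98974942) stood at 7.58, 4.88, 5.18, 7.47 and 4.11 RPM in KO 1 to KO 5, against 4.14 RPM in Control 1 and 4.97 RPM in Control 2. Both overlapped between the groups. KO 1 and KO 4 were the highest libraries for both receptors, while KO 5 had the lowest Rara of all.

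Per kilobase of exon, Rarg took 59.0% to 68.5% of the summed receptor level in KO libraries against 67.0% in Control 1 and 65.0% in Control 2. Rara took 27.4% to 39.6% in KO libraries against 33.0% in Control 1 and 31.4% in Control 2. Rarb made up 0.433% to 4.10% in KO libraries against 0% in Control 1 and 3.62% in Control 2. The receptor makeup thus overlapped between the groups, unlike that of the dehydrogenases.

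Over all 7 libraries Rbp4 had the highest level per kilobase of exon and Stra6 the lowest mean. Rbp4 averaged 35.0 ± 10.99, Rdh10 2.38 ± 0.415, Rarg 2.29 ± 0.265, Rara 1.25 ± 0.335 and Aldh1a1 0.490 ± 0.303 RPM per kb (SD, n = 7). Aldh1a3 followed at 0.334 ± 0.260, Aldh1a2 at 0.273 ± 0.0918, Rarb at 0.0788 ± 0.0558 and Stra6 at 0.0358 ± 0.0359 RPM per kb. This mean pools groups whose dehydrogenases stood in a different order. In KO libraries Aldh1a1 averaged 0.584, Aldh1a2 0.308 and Aldh1a3 0.216 RPM per kb, whereas in control libraries Aldh1a3 averaged 0.628, Aldh1a1 0.254 and Aldh1a2 0.184 RPM per kb. Neighbours in this order were compared within libraries by an exact permutation test in both directions that flips the sign of each library's difference, with 0.01 RPM per kb added before the log, and p-values were adjusted over the 8 pairs.

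Rbp4 exceeded Rdh10, Rarg exceeded Rara, Rara exceeded Aldh1a1 and Aldh1a2 exceeded Rarb in 7 of 7 libraries each. Each of these 4 steps had an exact p of 0.0156, the smallest that 7 libraries allow, and an adjusted p of 0.0312 by the permutation test. Their mean log2 differences were 3.83, 0.90, 1.53 and 2.06. For Rdh10 and Rarg the adjusted exact p was 0.828, for Aldh1a1 and Aldh1a3 0.479, for Aldh1a3 and Aldh1a2 0.828 and for Rarb and Stra6 0.30, so these neighbours could not be ordered beyond their spread over the pooled libraries. Taking the longest coding transcript as the length instead put Rarg above Rdh10 and left the rest of the order of means as it was.

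**Figure D4:**
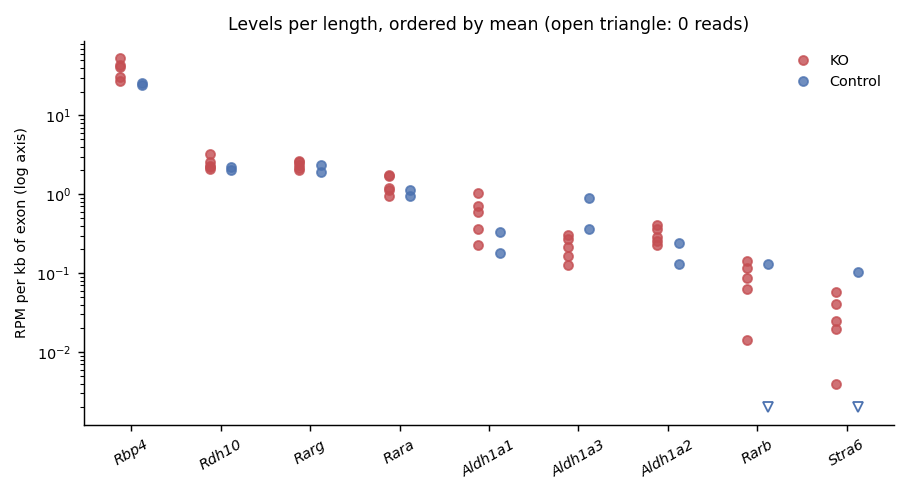
Level of each member per kilobase of exon (RPM per kb, log axis), ordered by the mean over 7 libraries, with 1 point per library, KO in red left of control in blue, and an open triangle for 0 reads. Rbp4 lies far above all others, and Rarb and Stra6 include a control library with 0 reads.

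Across the whole table limma called 10 of 16212 genes at an adjusted p under 0.05 (Benjamini-Hochberg), or 0.0617%, with 7 higher (0.0432%) and 3 lower (0.0185%) in KO. Of the 8 members that could be tested, 0 were among them, and 3 had an unadjusted p under 0.05, beside 10.8% of all genes. Their median difference was 0.23, against -0.01 for all genes tested. Since the members were chosen with this contrast known, nothing is read from these counts or from the median.

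The other genes of the pathway, 68 by name, were taken as a list by role, and 45 of them were tested. Some genes stand in more than 1 role. By limma 0 rose and 0 fell at an adjusted p under 0.05, beside 0.0617% of all genes, and 0 were called by limma-voom. At an unadjusted p under 0.05 there were 8, beside 10.8% of all genes. Of the 45, 2 had every KO library above both controls, beside 6.75% of all genes, and 6 had every KO library below both, beside 8.41% of all genes. The median difference was -0.01.

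The largest differences of this list lay in a cluster of short-chain retinol dehydrogenases on chromosome 10. Rdh9 (127776386 to 127792697) stood at 4.56, 4.02, 3.47, 4.14 and 3.804 RPM in KO 1 to KO 5, against 2.38 RPM in Control 1 and 1.66 RPM in Control 2. Rdh1 (127759721 to 127768297) stood at 2.83, 3.64, 3.996, 3.63 and 3.11 RPM in KO 1 to KO 5, against 1.76 RPM in Control 1 and 1.90 RPM in Control 2. In both genes every KO library lay above both controls, and the log2 differences were 0.73 (SE 0.15) for Rdh9 and 0.65 (SE 0.15) for Rdh1. Neither passed by limma (adjusted p = 0.0942 and 0.128), and neither was called under any alternative tried.

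These genes may not be wholly separate measurements, although Rdh1 and Rdh9 share 0 exon bases with each other. How reads were divided among such copies is not given in the sources used here. Rdh16f1, named after its values were seen, spans both, and 64.1% of the exon bases of Rdh9 and 11.8% of those of Rdh1 are also annotated to it. The coding sequences of Rdh9 and Rdh16f1 were 98.7% identical, those of Rdh1 and Rdh16f1 93.4% and those of Rdh1 and Rdh9 92.1%. Rdh16f1 stood at 5.40, 5.03, 4.68, 5.46 and 5.15 RPM in KO 1 to KO 5, against 2.88 RPM in Control 1 and 2.11 RPM in Control 2, a difference of 0.82 (SE 0.14, adjusted p = 0.0613 by limma). Its adjusted p fell to 0.0403 with median-of-ratios scaling and to 0.0245 without Control 1. The authors' deposited table lists Rdh1, Rdh9 and Rdh16f1 with log2 differences of 0.90, 1.00 and 1.06, KO minus control. In the authors' deposited table their corrected p-values are 0.0424 for Rdh1, 0.00778 for Rdh9 and 0.000316 for Rdh16f1, below 0.05 where limma's were above it. Rdh16f2, further along the cluster, stood at 0.473 to 0.812 RPM in KO libraries and at 0.669 and 0.452 RPM in control libraries. Rdh16 had 19 reads in all.

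Of the 18 retinol and retinaldehyde redox genes, Rdh1 and Rdh9 included, 13 were tested and 0 passed. Adh1 and Adh5, both alcohol dehydrogenases, and Rdh14 were the most abundant of these in RPM. Adh1 averaged 24.3 ± 5.75 RPM in KO (SD, n = 5) and 23.9 ± 0.398 RPM in control libraries (SD, n = 2), Adh5 23.9 ± 2.29 and 22.7 ± 1.604 RPM and Rdh14 16.1 ± 1.37 and 16.5 ± 1.28 RPM in the same order of groups.

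Among transport and storage genes 0 of 13 tested passed either. Ttr, the transthyretin that escorts the RBP4 protein in blood and is strongly expressed by alpha cells, averaged 314 ± 83.6 RPM in KO (SD, n = 5) and 223 ± 29.9 RPM in control libraries (SD, n = 2). It overlapped between the groups because KO 5 stood at 226 RPM, between Control 1 at 201 RPM and Control 2 at 244 RPM. The lipoprotein receptor gene Scarb1 averaged 16.5 ± 1.31 RPM in KO and 15.2 ± 3.43 RPM in control libraries, the fatty acid translocase gene Cd36 4.46 ± 0.894 RPM in KO and 4.998 ± 0.0921 RPM in control libraries, and the acyltransferase gene Dgat1 10.7 ± 1.22 RPM in KO and 9.04 ± 1.196 RPM in control libraries. Lpl, a lipase that also splits retinyl esters, ran from 48.1 to 64.8 RPM in KO libraries against 48.5 RPM in Control 1 and 34.8 RPM in Control 2, a difference of 0.47 (SE 0.13, adjusted p = 0.193 by limma) that was 0.70 without Control 1 and 0.23 without Control 2. Bco1, which cleaves beta-carotene to retinaldehyde, ran from 4.13 to 5.75 RPM in KO libraries against 6.06 and 7.62 RPM in control libraries, below both controls in 5 of 5 KO libraries (-0.43, SE 0.15, adjusted p = 0.325 by limma).

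Of the partner receptors and coregulators 0 of 11 tested passed. The retinoid X receptors, obligate partners of the retinoic acid receptors, averaged 25.4 ± 2.36 RPM in KO and 25.2 ± 0.263 RPM in control libraries for Rxra and 21.2 ± 1.62 and 20.5 ± 1.85 RPM for Rxrb in the same order of groups (SD, n = 5 and n = 2). Rxrg was at 0 reads in each KO library and in Control 1. The corepressor gene Ncor1 averaged 132 ± 5.70 RPM in KO and 151 ± 4.84 RPM in control libraries (-0.19, SE 0.07, adjusted p = 0.319 by limma), and the coactivator gene Ncoa2 47.2 ± 2.20 RPM in KO and 54.1 ± 2.71 RPM in control libraries (-0.19, SE 0.07, adjusted p = 0.357 by limma). Nrip1, a receptor-interacting repressor gene, averaged 16.5 ± 1.41 RPM in KO and 19.2 ± 0.311 RPM in control libraries. Each KO library lay below both controls in 4 of the 11, beside 8.41% of all genes, namely Ncor1, Ncoa2, Nrip1 and the coactivator gene Ncoa1, which ran from 42.7 to 46.9 RPM in KO libraries against 48.2 and 48.5 RPM in control libraries.

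Genes that bind, break down or respond to retinoic acid were mostly too low to test. Of 6 binding and breakdown genes, only Fabp5 was tested, at 6.30 ± 2.63 RPM in KO (SD, n = 5) and 6.55 ± 1.22 RPM in control libraries (SD, n = 2). Crabp1, Crabp2 and Cyp26c1 had 1, 3 and 1 reads in all. Of 16 response genes 7 were tested and 0 passed. Meis2, a homeodomain factor gene, averaged 69.8 ± 3.85 RPM in KO (SD, n = 5) and 65.9 ± 4.20 RPM in control libraries (SD, n = 2). Tgm2, a transglutaminase gene induced by retinoic acid in several cell types, stood at 30.9, 9.99, 11.9, 21.4 and 17.95 RPM in KO 1 to KO 5, against 9.45 RPM in Control 1 and 21.8 RPM in Control 2. The 2 tested aldehyde dehydrogenases outside the family averaged 17.95 ± 1.91 RPM in KO and 20.8 ± 1.58 RPM in control libraries for Aldh2, and 2.29 ± 0.279 RPM in KO and 2.19 ± 0.155 RPM in control libraries for Aldh1b1.

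**Figure D5:**
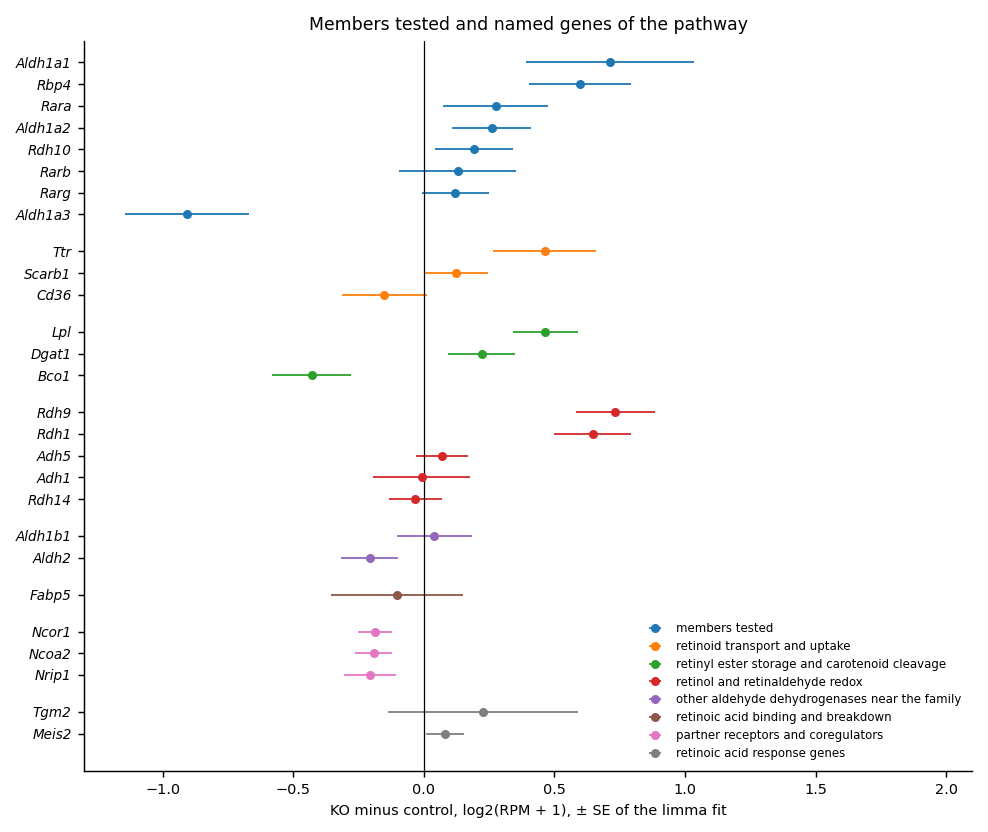
Difference of means between KO and control libraries (KO minus control, log2(RPM + 1)) with the SE of the limma fit for the 8 members tested and 19 other retinoid pathway genes tested, coloured by role. Aldh1a3 lies furthest to the left at -0.91, and Rdh9, Aldh1a1, Rdh1 and Rbp4 furthest to the right at 0.60 to 0.73.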

How the data were processed

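Whole islet RNA of 5 KO and 2 control libraries was prepared as directional polyA libraries, per the labels' protocols, and grouped by title. HISAT2, DESeq2 and GRCm38 appear in the submitters' processing notes, with no role or version. The counting program, its strand setting and the annotation are not stated there. The authors deposited log2 values per gene. Powers of 2 of these values were whole multiples of 1 step per library within 0.02 of a read for at least 99.9% of values above 0 reads, with 0 reads stored as 0.9 of a step. Reads and RPM were recovered from these steps, implying 23923000 to 43117300 reads per library. The authors' second table holds selected genes with deposited mean log2 values, a corrected p-value and a fold, given as the ratio of control to KO.

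Genes with 10 reads at the median depth (0.366 RPM) in at least 2 libraries were tested with limma 3.58.1 (R 4.3.3, intensity trend) on log2(RPM + 1), two-sided, with Benjamini-Hochberg adjustment over all of them. The unit is a log value, so limma was used as planned, and scripts were tested on simulated data. Exon lengths and coding sequences came from GENCODE M21 (GRCm38), and promoters from RefSeq. Plots used matplotlib 3.10.9. The members and lists were chosen with earlier results of these data known. Beyond the members, the text names per list the 3 tested genes with the highest mean RPM and the 2 with the smallest unadjusted p, the 5 profiles most like Aldh1a3 and Rbp4, and leading cell type markers. A few genes that this rule takes are not reported here. Any other gene named was chosen after its values were seen. The labels do not say that libraries with the same number share a litter or day, so p-values reflect only the variation among these 7 libraries, which may be technical.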

Additional observations from a re-analysis of the deposited data

How the results depend on the processing

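The count of 10 called genes was 4 with no filter on low values, 20 with median-of-ratios scaling and 47 without KO 2 and KO 3, and ran from 2 (without KO 4 or Control 2) through 3 (without KO 3) to 120 (without Control 1). The count among the 68 other retinoid genes stayed 0 in 16 of 17 alternatives and ranged from 0 to 1 with a library left out, the 1 being Lpl without Control 1 (log2 difference 0.70, adjusted p = 0.0357 by limma, against 0.23 and 0.655 without Control 2). Fits without a control set 1 library against 5, and the lone library is assumed to vary like the KO group. The Aldh1a3 difference was -1.38 with a pseudocount of 0.1 RPM and -1.48 with voom on recovered reads, and ran from -1.38 to -0.44 with a library left out. The Rbp4 difference ran from 0.40 to 0.89 over all alternatives and moved by less than the spread between libraries in each.

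With the replicate number as a block (replicate block), KO 3, KO 4 and KO 5 had no control of their number. The differences then rested on KO 1 and KO 2 against Control 1 and Control 2 only. Under this setting 11 genes were called. The Aldh1a3 difference was -0.99, the Rbp4 difference 0.89 and the Rdh10 difference 0.40 in place of 0.19. Small differences changed sign for Rarb (-0.055), Aldh1b1 (-0.074) and Fabp5 (0.10). The deviations of Control 1 and KO 1 correlated at -0.10 and those of Control 2 and KO 2 at -0.24 across genes. With 2 controls, their deviations mirror each other, so these correlations cannot show whether libraries with the same number are paired. The labels give no pairing, so the numbers were not taken to pair libraries. The Aldh1b1 difference ran from -0.0094 to 0.090 and that of Fabp5 from -0.29 to 0.064 with a library left out. The Rarb difference was 0.13, against 1.47 with voom, -0.25 without Control 1 and 0.51 without Control 2. The causes were not tested. Depth limits Stra6, Rarb, Aldh1a2 and Cyp26b1, which rest on few reads.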
